A study of Homo sapiens with 238 samples.

Results

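The 35 genes described here encode aminoacyl-tRNA synthetases, 19 of them the cytosolic enzymes and 16 the mitochondrial ones, out of 62696 genes in the count tables. They were chosen by symbol: cytosolic genes end in 1 (with EPRS1 for the joint glutamyl- and prolyl-tRNA synthetase, and FARSA and FARSB for the alpha and beta subunits of the phenylalanyl enzyme), and mitochondrial genes end in 2. The rule of choice used no measured value, but members were chosen with earlier results of these data known. All 35 passed the count filter of every fit.

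The study edited G-quadruplexes, four-stranded DNA structures formed by guanine-rich sequence, in the enhancers of the globin genes in K562 cells, an established human erythroleukemia line. Poly(A) RNA was sequenced in 62 libraries of 12 lines. In the α series, αMut1 (n = 7) and αMut2 (n = 4) carry G-quadruplex mutations in the HS-40 enhancer, αRes1 and αRes2 (n = 8 each) and αRes3 and αRes4 (n = 4 each) carry a MYC G-quadruplex inserted at that site in αMut1 cells, and αWT (n = 8) is unedited. In the β series, βMut1 and βMut2 (n = 4 each) carry G-quadruplex mutations in the HS2 enhancer, WT-HS3Δ (n = 4) lacks the neighbouring HS3 element, βMut-HS3Δ (n = 3) has that deletion in βMut1 cells, and βWT (n = 4) is unedited. Cells were sorted into wells one by one after editing, so each mutated or reinserted line is 1 clone, and an edit and the clone that carries it cannot be told apart. The labels do not say whether libraries of a line came from separate cultures, so p-values measure the spread between these libraries.

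Aminoacyl-tRNA synthetases attach each amino acid to its tRNA and so set the genetic code. The cytosolic enzymes serve translation in the cytoplasm, and several of them (EPRS1, IARS1, KARS1, LARS1, MARS1, QARS1 and RARS1) are held in a multisynthetase complex. The mitochondrial enzymes are also encoded in the nucleus and serve the translation of the respiratory chain subunits made inside mitochondria, while GARS1 and KARS1 supply both compartments. When uncharged tRNA accumulates, the kinase GCN2 phosphorylates eIF2, the transcription factor ATF4 is made, and ATF4 with a C/EBP partner binds composite elements with the core TGATGNAA in genes for amino acid synthesis, amino acid uptake and cytosolic tRNA charging.

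The stretches around that core are shown because AARS1, CARS1 and GARS1 hold it. Each was lower than in βWT in αWT, βMut2 and both lines without HS3. Members whose line means varied less (TARS1, IARS1 and YARS2) hold the core as well. RefSeq promoter windows (GRCh38.p14, 250 bases before to 50 bases after each start) were listed for 30 of the 35 members, all but LARS1, VARS1, YARS1, AARS2 and VARS2. Both strands were searched, and every TGATGCAA is also a TGATGNAA. TGATGCAA stood in the windows of 6 of 16 cytosolic and 0 of 14 mitochondrial members, against 1.08% of the 27305 genes in the table. TGATGNAA stood in those of 7 of 16 cytosolic members and of 1 of 14 mitochondrial members, against 4.46% of all genes. Each stretch reads 5′ to 3′ on the strand that holds the motif, which is in capitals, with 11 bases on each side. ASNS and CHAC1, which are not synthetases but are known ATF4 targets, are shown beside the members. Of 18 genes of the amino acid response and ATF4 list in the table, 2 held TGATGCAA and 4 held TGATGNAA, so most lacked both.
AARS1: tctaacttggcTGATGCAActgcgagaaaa
CARS1: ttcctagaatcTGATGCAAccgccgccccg
IARS1: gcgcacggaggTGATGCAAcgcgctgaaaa
MARS1: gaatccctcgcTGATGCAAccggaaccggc
NARS1: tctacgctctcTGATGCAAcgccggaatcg
TARS1: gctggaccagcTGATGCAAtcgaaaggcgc
GARS1: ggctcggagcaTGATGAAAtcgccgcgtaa
YARS2: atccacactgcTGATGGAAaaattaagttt
CHAC1: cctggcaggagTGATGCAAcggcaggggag
ASNS: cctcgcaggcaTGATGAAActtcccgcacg

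On GRCh38.p14 these stretches lie at chr16:70289675-70289704 (plus strand) for AARS1, chr11:3057407-3057436 (plus) for CARS1, chr9:92293692-92293721 (plus) for IARS1 and chr12:57488053-57488082 (minus) for MARS1. Those of NARS1, TARS1 and GARS1 lie at chr18:57621804-57621833, chr5:33440956-33440985 and chr7:30594834-30594863, all on the minus strand. Those of YARS2, CHAC1 and ASNS lie at chr12:32756076-32756105, chr15:40953251-40953280 and chr7:97872458-97872487, also on the minus strand. Counted from the RefSeq start, with 1 as the first transcribed base, the motif covered positions -2 to 6 in CARS1, -4 to 4 in MARS1 and -13 to -6 in IARS1. It lay just inside the transcript in TARS1 (3 to 10) and NARS1 (15 to 22), and upstream of the start in GARS1 (-33 to -26), AARS1 (-187 to -180) and YARS2 (-197 to -190). A match is a run of letters and not a measured binding site, and WARS1, the cytosolic gene with the widest range of line means, held neither motif in its window.

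Libraries held 4270215 to 48671570 counts, and no library pair agreed within sampling noise. The replicate numbers of αWT, αMut1, αRes1 and αRes2 form 2 sets, 1 to 4 and 5 to 8. The summed counts of 5 pseudoautosomal genes (SLC25A6, ASMTL, AKAP17A, CSF2RA and ZBED1) were at least 4422 in all αRes3 and αRes4 libraries and in αRes1 and αRes2 numbers 5 to 8, 16 libraries in all, and 0 or 1 in the others, and the cause was not tested. Replicate 3 of αRes2 was the shallowest library, and replicate 1 had the highest summed cytosolic synthetase level of its line in all 5 β lines. Of the other cell type markers, CD3E and ALB stayed at or under 2.63 CPM (counts scaled to a common library total), MS4A1 and CD14 were under the filter, EPCAM lay between 26.8 and 161 CPM and COL1A1 between 0.236 and 54.7 CPM. The erythroid marker GATA1 lay at 193 to 362 CPM. A gene was called changed at an adjusted p under 0.05 and an absolute log2 change above 0.5, by edgeR's quasi-likelihood test adjusted over all genes.

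Per length, the cytosolic genes were the more abundant class. As RPKM, which divides CPM by the canonical transcript length in kilobases, medians over the 62 libraries ran from 27.6 for FARSB to 196 for KARS1, 193 for VARS1 and 185 for GARS1 among cytosolic genes. Mitochondrial medians ran from 0.593 for VARS2 and 6.48 for SARS2 to 28.5 for RARS2 and 75.9 for IARS2, the isoleucyl enzyme. The exons of VARS2 are covered to 100% by a second annotated gene on the same strand and those of SARS2 to 77.6%, so their counts are uncertain, and VARS2 stood at 0.332 to 9.66 CPM in every library.

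The members differed widely in how far they varied by line. The ratio of the highest to the lowest line mean was 6.34 for WARS1 (tryptophan), 5.35 for NARS1 (asparagine), 4.69 for SARS1 (serine), 4.63 for CARS1 (cysteine) and 4.53 for AARS1 (alanine). It was 1.55 for FARSB, 1.52 for TARS2 and 13.3 for VARS2 at its very low level. For WARS1 and AARS1 the highest line was βWT, and for SARS1 it was βMut1.

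The summed level of the 19 cytosolic genes separated βMut1 and βWT from the other lines. It averaged 11724 ± 1240 CPM in βMut1, 8710 ± 902 CPM in βMut2, 8562 ± 141 CPM in WT-HS3Δ, 7473 ± 620 CPM in βMut-HS3Δ and 12824 ± 475 CPM in βWT (SD). In the α series it averaged 6012 ± 157 CPM in αMut1, 6610 ± 243 CPM in αMut2, 6480 ± 490 CPM in αRes1, 6962 ± 185 CPM in αRes2, 6740 ± 86.4 CPM in αRes3, 5115 ± 620 CPM in αRes4 and 6466 ± 370 CPM in αWT. No α library (highest 7193 CPM) reached the lowest βMut1 library (10751 CPM) or the lowest βWT library (12410 CPM).

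The summed level of the 16 mitochondrial genes moved less and in another order. It averaged 828.6 ± 50.3 CPM in βMut1, 1028 ± 88.2 CPM in βMut2, 1237 ± 28.6 CPM in WT-HS3Δ, 1201 ± 40.5 CPM in βMut-HS3Δ and 1019 ± 8.92 CPM in βWT. α lines lay between 821 ± 34.0 CPM in αRes4 and 1060 ± 41.0 CPM in αMut2, with αWT at 1056 ± 72.3 CPM. Since both sums come from the same library, their ratio does not depend on its scaling. The cytosolic to mitochondrial ratio was 14.1 in βMut1, 8.47 in βMut2, 6.92 in WT-HS3Δ, 6.22 in βMut-HS3Δ and 12.6 in βWT, and α line means lay between 6.13 in αWT and 7.85 in αRes2.

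**Figure D1:**
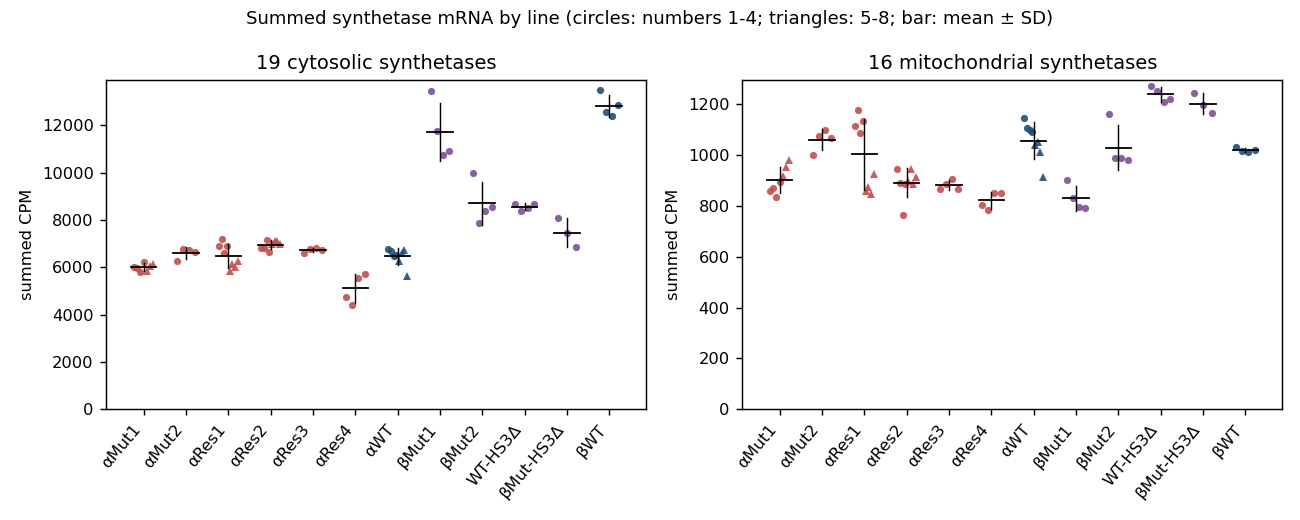
Summed CPM of the 19 cytosolic and the 16 mitochondrial synthetase genes in every library, by line; points are libraries and black bars the mean and SD. The cytosolic sum is at least 10751 CPM in all 4 βMut1 and all 4 βWT libraries and at most 7193 CPM in the α libraries, while the mitochondrial sums overlap between the series.

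The lines without HS3 held most synthetase calls of the β series. Against βWT, 9 of 19 cytosolic members were lower and 4 higher in WT-HS3Δ, and 7 of 16 mitochondrial members were higher and 0 lower. Over all 17535 genes tested, 27.5% were lower and 22.8% higher. The shares of members were 47.4% lower and 21.1% higher in the cytosolic class, and 43.8% higher in the mitochondrial class. The median log2 change was -0.48 over cytosolic members, 0.38 over mitochondrial members and -0.03 over all genes.

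Among the cytosolic genes WARS1 and CARS1 had the largest falls in WT-HS3Δ. WARS1, which charges tRNA-Trp, stood at 351, 344, 334 and 341 CPM in the 4 WT-HS3Δ libraries, against 1325, 1195, 1139 and 1230 CPM in βWT. All WT-HS3Δ libraries were below all βWT libraries, with a log2 change of -1.78 ± 0.10 (SE, adjusted p = 9.21e-12). CARS1, the cysteinyl enzyme, stood at 100.1, 98.1, 99.4 and 94.7 CPM in WT-HS3Δ, against 350.2, 331, 325 and 345 CPM in βWT. The groups did not overlap and the log2 change was -1.73 ± 0.09 (adjusted p = 1.81e-12).

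AARS1, the alanyl enzyme, stood at 472, 409, 454 and 486 CPM in WT-HS3Δ, against 1296, 1058, 1041 and 1081.5 CPM in βWT. The groups were apart, with a log2 change of -1.25 ± 0.12 (adjusted p = 3.17e-08). GARS1, the glycyl enzyme of both compartments, stood at 466.3, 439, 444 and 447 CPM in WT-HS3Δ, against 1016, 888, 861 and 907 CPM in βWT, a log2 change of -0.98 ± 0.10 (adjusted p = 9.49e-08). Again no WT-HS3Δ library reached the lowest βWT library. The other cytosolic members that fell were SARS1 (-0.96), MARS1 (-0.88), EPRS1 (-0.70), IARS1 (-0.69) and LARS1 (-0.66). Of the complex members, EPRS1, IARS1, LARS1 and MARS1 were therefore lower while KARS1 (0.61) and RARS1 (0.51) were higher.

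FARSA, the alpha subunit of the phenylalanyl enzyme, was the cytosolic gene with the largest rise. It stood at 423, 409, 419 and 397 CPM in WT-HS3Δ, against 225, 179, 184 and 192 CPM in βWT, with no overlap and a log2 change of 1.13 ± 0.13 (adjusted p = 3.2e-07). Its partner FARSB, which forms the same enzyme, had a log2 change of 0.26 and was not called. HARS1 and HARS2, the histidyl pair, lie head to head on chromosome 5 with starts at 140691537 (HARS1, minus strand) and 140691430 (HARS2, plus strand) in GRCh38. HARS1 stood at 169, 176, 179 and 168 CPM in WT-HS3Δ, against 108, 111, 114 and 117 CPM in βWT. HARS2 stood at 54.1, 51.8, 53.6 and 51.4 CPM in WT-HS3Δ, against 39.8, 42.2, 39.9 and 39.5 CPM in βWT. Both were higher in every WT-HS3Δ library, by 0.67 ± 0.08 for HARS1 (adjusted p = 2e-07) and 0.44 for HARS2, which is under the size limit. Their exons overlap by 83 bases on opposite strands, and whether strand was used in counting is not given in the sources used here.

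The mitochondrial members called in WT-HS3Δ all rose. TARS2 and WARS2 were below βWT in every library and HARS2, NARS2 and SARS2 above it, and none of these was called. MARS2, the mitochondrial methionyl enzyme, stood at 49.5, 49.6, 44.7 and 49.8 CPM in WT-HS3Δ, against 20.001, 19.7, 20.1 and 21.0 CPM in βWT. No libraries overlapped and the log2 change was 1.31 ± 0.09 (adjusted p = 1.67e-10). EARS2, the glutamyl enzyme that acts on both tRNA-Glu and tRNA-Gln in mitochondria, stood at 100.7, 94.0, 90.5 and 99.1 CPM in WT-HS3Δ, against 56.1, 46.0, 46.9 and 49.8 CPM in βWT, a log2 change of 1.00 ± 0.12 (adjusted p = 4.12e-07). AARS2 (0.96 ± 0.14), YARS2 (0.84), LARS2 (0.83), CARS2 (0.81) and FARS2 (0.57) rose as well.

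Matching cytosolic genes with the mitochondrial gene of their amino acid gives 17 pairs. EPRS1 enters with both EARS2 and PARS2, and FARS2 with both FARSA and FARSB. GARS1, KARS1 and QARS1 have no partner among the members. In WT-HS3Δ the cytosolic gene was lower and the mitochondrial gene higher in 5 pairs: alanine, cysteine, leucine, methionine and glutamate (EPRS1 with EARS2). No pair went the reverse way, and FARSA with FARS2 was the pair in which both were higher. With 47.4% of cytosolic members lower and 43.8% of mitochondrial members higher, opposite pairs need no link by amino acid. Over all genes the shares were 27.5% lower and 22.8% higher, and the number of such pairs without a link was not computed. For alanine the log2 changes were -1.25 for AARS1 and 0.96 for AARS2, and for methionine -0.88 for MARS1 and 1.31 for MARS2.

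Against βWT, the leading cytosolic members had larger fitted falls in βMut-HS3Δ than in WT-HS3Δ. βMut-HS3Δ was not set against βMut1, so the change that goes with the deletion in βMut1 cells was not measured. In βMut-HS3Δ against βWT, 12 cytosolic members were lower and 3 higher, and 7 mitochondrial members were higher and 0 lower, where 26.1% of all genes were lower and 22.0% higher. The median log2 change was -0.71 over cytosolic members and 0.36 over mitochondrial members, with 0.00 over all genes. WARS1 stood at 266, 254 and 224 CPM in the 3 βMut-HS3Δ libraries, all below its 1139 to 1325 CPM in βWT, a log2 change of -2.29 ± 0.11 (adjusted p = 1.93e-12). AARS1 stood at 322, 268 and 225 CPM in βMut-HS3Δ and at 1041 to 1296 CPM in βWT, a log2 change of -2.03 ± 0.14 (adjusted p = 2.27e-10).

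CARS1 stood at 85.1, 81.3 and 78.8 CPM in βMut-HS3Δ and at 325 to 350.2 CPM in βWT, a log2 change of -2.04 ± 0.10 (adjusted p = 1.18e-12). GARS1 stood at 415, 366 and 344 CPM in βMut-HS3Δ and at 861 to 1016 CPM in βWT, a log2 change of -1.28 ± 0.12 (adjusted p = 1.13e-08). Neither gene overlapped between the lines. MARS1 (-1.08), EPRS1 (-1.01), SARS1 (-0.97), LARS1 (-0.79), IARS1 (-0.78), YARS1 (-0.71), QARS1 (-0.67) and NARS1 (-0.53) fell too. FARSA (0.89 ± 0.14), HARS1 (0.62 ± 0.08, adjusted p = 1.85e-06) and RARS1 (0.53 ± 0.10) rose, and HARS2 had a log2 change of 0.40.

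Of the mitochondrial genes MARS2 again had the largest rise in βMut-HS3Δ, at 53.5, 48.66 and 45.7 CPM, against 19.7 to 21.0 CPM in βWT, a log2 change of 1.30 ± 0.09 (adjusted p = 5.44e-10). CARS2 (0.87 ± 0.07), YARS2 (0.79 ± 0.08) and AARS2 (0.69 ± 0.15) followed, and EARS2 (0.64), FARS2 (0.63) and LARS2 (0.61) were also higher. Opposite calls were found in 6 of the 17 pairs, the 5 amino acids named for WT-HS3Δ and tyrosine. Here 63.2% of cytosolic members were lower and 43.8% of mitochondrial members higher, so such pairs again need no link by amino acid. Both deletion lines were set against the same 4 βWT libraries, and their values are given side by side only.

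Set against each other, the 2 deletion lines differed in few members. In βMut-HS3Δ against WT-HS3Δ, 2 cytosolic members were lower, 0 members were higher, and 8.99% of all genes were lower and 7.33% higher. AARS1 was lower in all 3 βMut-HS3Δ libraries than in all 4 WT-HS3Δ libraries, by -0.79 ± 0.13 (adjusted p = 0.000187). WARS1 was lower by -0.51 ± 0.11 (adjusted p = 0.00131), just past the size limit, and its call was lost without βMut-HS3Δ replicate 3 or without WT-HS3Δ replicate 1. The interaction, which asks whether the change that goes with the HS2 mutation differs between cells with and without HS3, called AARS1 alone at -0.54 ± 0.18 (adjusted p = 0.0413), where 6.88% of genes were called negative and 5.18% positive. That call was lost with another scaling method, with an adjusted p of 0.0516, and no member was called in it without βMut1 replicate 2 or 4, βMut-HS3Δ replicate 2 or 3, βWT replicate 2, 3 or 4, or any 1 of the 4 WT-HS3Δ libraries.

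In βMut2 calls were nearly all falls of cytosolic members. Against βWT, 9 of 19 cytosolic members were lower and 0 higher, and 1 of 16 mitochondrial members was higher, where 13.7% of all genes were lower and 15.0% higher. The median log2 change was -0.45 over cytosolic members, 0.06 over mitochondrial members and 0.00 over all genes. WARS1 stood at 696, 512, 584 and 607 CPM in βMut2, all below the βWT libraries, a log2 change of -1.02 ± 0.10 (adjusted p = 1.13e-07). AARS1 stood at 648, 479, 526.4 and 543 CPM in βMut2, also with no overlap, a log2 change of -1.02 ± 0.12 (adjusted p = 1.9e-06). GARS1 stood at 645, 457, 508 and 525 CPM in βMut2, a log2 change of -0.78 ± 0.10 (adjusted p = 7.28e-06), and EPRS1 had a log2 change of -0.69 ± 0.09 (adjusted p = 9.88e-06).

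YARS1 (-0.61), MARS1 (-0.58), CARS1 (-0.57), IARS1 (-0.57) and LARS1 (-0.51) were the other cytosolic members that fell in βMut2. The mitochondrial genes AARS2 (-0.03), LARS2 (-0.02), MARS2 (0.18) and CARS2 (0.28) were not called. VARS2 was the mitochondrial gene called higher, by 0.81 ± 0.32 (adjusted p = 0.0414), at 0.618 to 1.51 CPM in βMut2 and 0.332 to 0.830 CPM in βWT, with overlap between the lines.

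βMut1, the other HS2 mutant, held 5 calls. Against βWT, 2 cytosolic members were lower and 0 higher, and 2 mitochondrial members were lower and 1 higher, where 7.28% of all genes were lower and 13.0% higher. The median log2 change was -0.12 over cytosolic members, -0.24 over mitochondrial members and 0.02 over all genes. WARS1 stood at 1387, 1133, 1016 and 1047 CPM in βMut1 and overlapped with βWT, and so did AARS1 at 1121, 906, 804 and 896 CPM. Neither was called.

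VARS1, the valyl enzyme, stood at 622, 401, 362 and 425 CPM in βMut1, against 908, 642, 624 and 684 CPM in βWT, a log2 change of -0.64 ± 0.17 (adjusted p = 0.00625). Replicate 1 was the highest library of both lines, and the highest βMut1 library lay just under the lowest of βWT. FARSA stood at 177, 126, 116 and 123 CPM in βMut1, against 225, 179, 184 and 192 CPM in βWT, a log2 change of -0.51 ± 0.13 (adjusted p = 0.00547). LARS2, the mitochondrial leucyl enzyme, stood at 68.1, 51.2, 41.3 and 48.3 CPM in βMut1, against 98.8, 82.3, 83.7 and 87.2 CPM in βWT. No libraries overlapped, with a log2 change of -0.73 ± 0.13 (adjusted p = 0.000454). EARS2 was lower by -0.64 ± 0.12 (adjusted p = 0.000519), and VARS2 higher by 0.96 ± 0.32 at under 2 CPM. LARS1 and EPRS1, the cytosolic partners of LARS2 and EARS2, were not called. Without βMut1 replicate 1 the count of members called in βMut1 was 8, and without replicate 3 or replicate 4 it was 3, where it was 5 with all libraries.

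**Figure D2:**
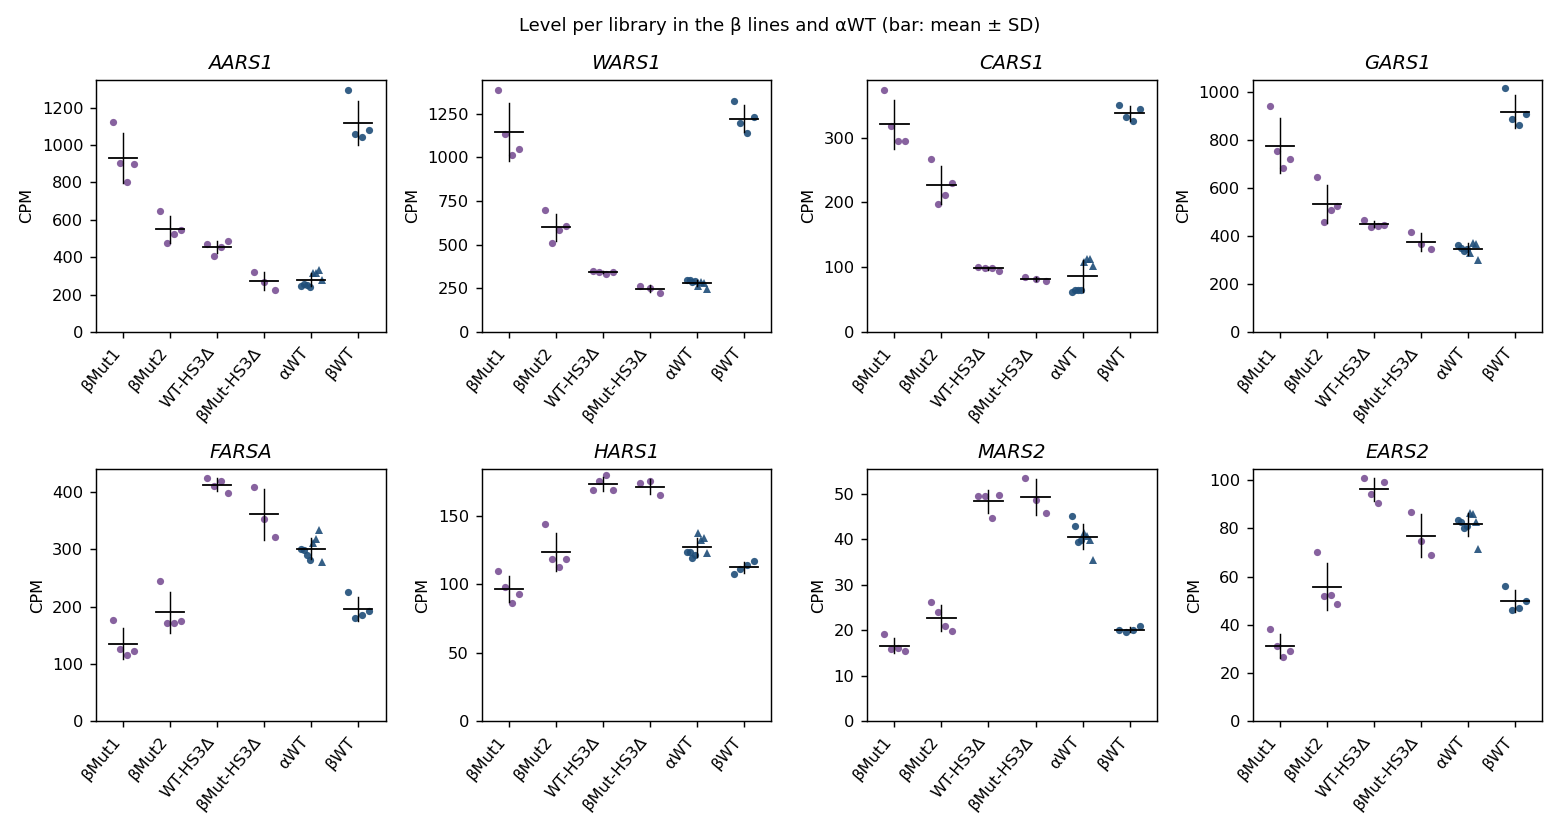
CPM (vertical axes, from 0) of 8 members in each library of the β lines and αWT; points are libraries and black bars the mean and SD. WARS1, CARS1 and AARS1 lie lower in both HS3Δ lines than in βWT, while FARSA, MARS2 and EARS2 lie higher there.

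The unedited lines of the 2 series differed in 20 of the 35 members. In αWT against βWT, 12 cytosolic members were lower and 1 higher, and 6 mitochondrial members were higher and 1 lower, where 23.1% of all 18196 genes tested were lower and 25.0% higher. The median log2 change was -0.88 over cytosolic members, 0.27 over mitochondrial members and 0.02 over all genes. WARS1 had a lowest, median and highest level of 244, 288.5 and 299.6 CPM in αWT, all below the 1139 CPM of the lowest βWT library, a log2 change of -2.12 ± 0.07 (adjusted p = 6.81e-12). AARS1 stood at 243, 267 and 330 CPM (lowest, median and highest) in αWT, far below its βWT range, a log2 change of -1.995 ± 0.10 (adjusted p = 5.03e-10).

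CARS1 stood at 61.6, 83.7 and 113 CPM in αWT, a log2 change of -1.96 ± 0.17 (adjusted p = 2.53e-07). The 2 sets of αWT differed in CARS1, at 61.6 to 65.1 CPM in numbers 1 to 4 and 102 to 113 CPM in numbers 5 to 8, and both lay below βWT. MARS1 (-1.67 ± 0.08, adjusted p = 5.25e-10), SARS1 (-1.50), GARS1 (-1.40), YARS1 (-1.34), EPRS1 (-1.11), IARS1 (-0.99), NARS1 (-0.88), TARS1 (-0.85) and LARS1 (-0.79) were lower in αWT, and FARSA was higher by 0.63. MARS2 (1.01 ± 0.07), CARS2 (0.88 ± 0.09), AARS2 (0.86 ± 0.10), EARS2 (0.72), LARS2 (0.54) and VARS2 (2.42 ± 0.50, at low counts) were higher, and TARS2 was lower by -0.51. The comparisons of αWT, WT-HS3Δ and βMut-HS3Δ share the 4 βWT libraries.

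K562 is aneuploid, so the median log2 change of the other tested genes within 5 Mb was set beside each called member. For AARS1, with 129 such genes on chromosome 16, the median was 0.50 in WT-HS3Δ and 0.18 in βMut-HS3Δ, where AARS1 itself was at -1.25 and -2.03. For WARS1 on chromosome 14 it was 0.12 and 0.10, for FARSA on chromosome 19 it was 0.09 and 0.02, and for MARS2 on chromosome 2 it was -0.01 and 0.06, where the genes themselves were past 0.5 in size. For CARS1 on chromosome 11 it was -0.35 and -0.50, the same direction as the gene at -1.73 and -2.04 and smaller in size. For GARS1 on chromosome 7 it was -0.34 and -0.22, also in the direction of the gene at -0.98 and -1.28. In βMut-HS3Δ against WT-HS3Δ the genes around AARS1 had a median of -0.36, with 88.4% on the same side as AARS1 at -0.79. In the interaction their median was -0.31, with 83.7% on the same side as AARS1 at -0.54. The part of these shifts in the AARS1 calls was not tested.

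**Figure D3:**
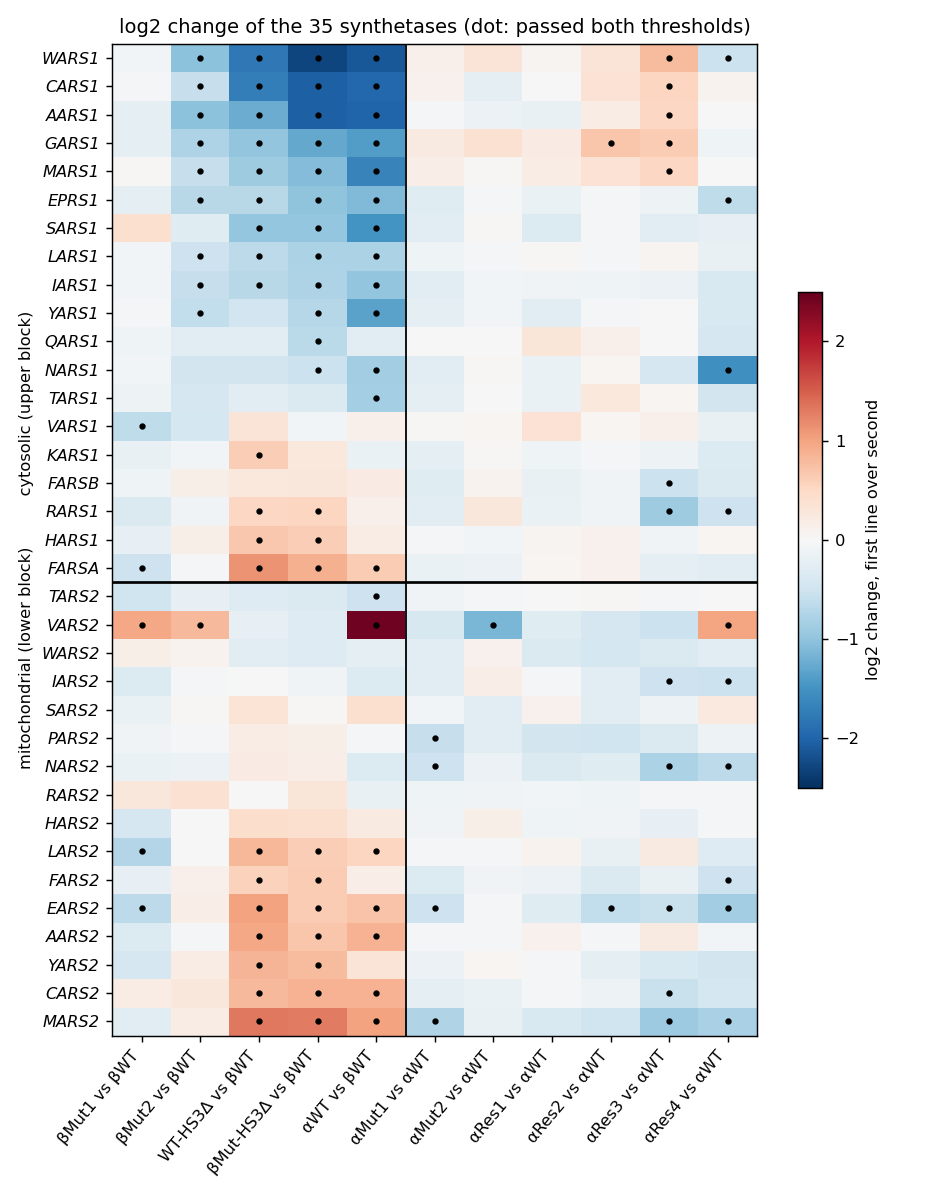
Fitted log2 change of each of the 35 members (cytosolic above mitochondrial) in 11 comparisons, from blue (lower) to red (higher), with a dot for a called member. The HS3Δ lines and αWT against βWT share falls of WARS1, CARS1 and AARS1 and rises of MARS2 and EARS2, and the α comparisons hold smaller changes.

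Calls in the HS-40 mutant αMut1 were falls of 4 mitochondrial members, and all 4 were lost with numbers 5 to 8 only. In αMut1 against αWT, 4 of 16 mitochondrial members were lower, 0 of 35 members were higher and 0 cytosolic members were called, where 7.35% of all 18247 genes were lower and 15.4% higher. All 16 mitochondrial members had a negative log2 change, with a median of -0.25, against -0.17 over cytosolic members and -0.03 over all genes. MARS2 had a lowest, median and highest level of 19.5, 20.9 and 31.2 CPM in αMut1, against 35.5, 40.4 and 45.2 CPM in αWT. The lines did not overlap, and the log2 change was -0.76 ± 0.13 (adjusted p = 1.02e-05). MARS1, its cytosolic partner, was not called. PARS2, the mitochondrial prolyl enzyme, was lower by -0.57 ± 0.08 (adjusted p = 2.22e-07), NARS2 by -0.53 ± 0.08 (adjusted p = 9.99e-07) and EARS2 by -0.53 ± 0.06 (adjusted p = 3.35e-09). With numbers 5 to 8 only, the log2 changes were -0.41 for MARS2, -0.48 for PARS2, -0.37 for NARS2 and -0.43 for EARS2, all under the size limit, and MARS2 was at -1.05 with numbers 1 to 4 only.

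The 2nd HS-40 mutant, αMut2, held 1 call among the members, VARS2 at -1.14 ± 0.39 (adjusted p = 0.0292), where 9.43% of all genes were lower and 6.62% higher. VARS2 stood at 3.07, 1.196, 1.16 and 0.721 CPM in αMut2, against 1.45 to 7.56 CPM in αWT, with overlap. Its call was lost within replicates 1 to 4. Against αMut1, αMut2 had 2 members higher and 0 lower, MARS2 (0.57 ± 0.16, adjusted p = 0.00396) and RARS1 (0.54 ± 0.13, adjusted p = 0.000972), where 5.78% of genes were higher and 16.1% lower. RARS1 lost its call with the replicate number as a block (0.41), with the set as a covariate (0.40) and within numbers 1 to 4 (0.41).

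αRes1 held no called member against αWT (13.0% of genes higher, 7.41% lower) and none against αMut1 (0.400% higher, 2.56% lower). These fits pool the 2 replicate sets, and within sets there were calls, 5 against αWT with numbers 5 to 8, and 8 and 4 against αMut1 with numbers 1 to 4 and 5 to 8. The share of all genes called within sets is not given here, so these counts cannot be set against it. αRes2 held 2 calls against αWT, where 12.0% of genes were higher and 6.67% lower, and none against αMut1 (2.72% higher, 6.24% lower). GARS1 had a lowest, median and highest level of 503, 546 and 721 CPM in αRes2, against 302, 349 and 371 CPM in αWT, a log2 change of 0.69 ± 0.08 (adjusted p = 4.1e-09). No αRes2 library overlapped with αWT. EARS2 was lower by -0.62 ± 0.06 (adjusted p = 4.21e-11), at 45.7 to 58.7 CPM in αRes2 and 71.4 to 86.4 CPM in αWT. Without αRes2 replicate 1 or without αWT replicate 8, αRes2 had 4 calls against αWT.

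In αRes3 cytosolic calls were mostly rises and mitochondrial calls all falls. Against αWT, 5 cytosolic members were higher and 2 lower, and 0 mitochondrial members were higher and 5 lower, where 20.1% of all genes were higher and 18.9% lower. The median log2 change was -0.02 over cytosolic members, -0.36 over mitochondrial members and -0.04 over all genes. WARS1 stood at 482, 485, 477 and 492.7 CPM in αRes3, against 244, 288.5 and 299.6 CPM (lowest, median and highest) in αWT, a log2 change of 0.79 ± 0.11 (adjusted p = 1.26e-07). GARS1 stood at 538, 537, 517 and 553 CPM in αRes3, above its 302 to 371 CPM in αWT, a log2 change of 0.64 ± 0.09 (adjusted p = 2.91e-07). Neither gene overlapped between the lines.

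CARS1 (0.54 ± 0.13, adjusted p = 0.000371) and AARS1 (0.52 ± 0.12, adjusted p = 0.000414) were just past the size limit in αRes3 and slipped under it with no filter on low counts (0.48 and 0.46). CARS1 also did so without αWT replicate 1, 2, 3 or 4 (lowest 0.49), and AARS1 without αRes3 replicate 3 or αWT replicate 1, 3 or 4 (lowest 0.49). With numbers 1 to 4 only CARS1 was at 0.97. MARS1 rose by 0.52. The 5 cytosolic members that rose in αRes3 were all among the 12 that fell in βMut-HS3Δ, which is 100.0% of the 5 and 41.7% of the 12. Those 12 are 63.2% of the 19 cytosolic members, so a large overlap needs no link between the lines, and the overlap over all genes was not counted. RARS1 stood at 116, 115, 109 and 111 CPM in αRes3, against 146 to 267 CPM in αWT, a log2 change of -0.90 ± 0.13 (adjusted p = 2.26e-07), and RARS2 was not called. FARSB was lower by -0.53 ± 0.13 (adjusted p = 0.000776). MARS2 (-0.90 ± 0.16, adjusted p = 1.03e-05), NARS2 (-0.78 ± 0.10, adjusted p = 9.73e-09), EARS2 (-0.57), CARS2 (-0.56) and IARS2 (-0.51) were the mitochondrial members that fell. For cysteine and methionine the cytosolic gene rose and the mitochondrial gene fell.

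αRes4 had mostly falls. Against αWT, 4 cytosolic members were lower and 0 higher, and 5 mitochondrial members were lower and 1 higher, where 17.2% of all genes were lower and 23.3% higher. NARS1, the asparaginyl enzyme, had the largest change, at 88.7, 80.9, 104 and 109.8 CPM in αRes4, against 211, 277 and 330 CPM (lowest, median and highest) in αWT. The groups were far apart, with a log2 change of -1.53 ± 0.10 (adjusted p = 4.34e-16). EPRS1 (-0.63 ± 0.14), WARS1 (-0.53 ± 0.12) and RARS1 (-0.52) were the other cytosolic members that fell. EARS2 (-0.88 ± 0.07, adjusted p = 7.01e-13), MARS2 (-0.81 ± 0.16, adjusted p = 4.19e-05), NARS2 (-0.66 ± 0.10), IARS2 (-0.53) and FARS2 (-0.52) fell, and VARS2 rose by 0.99 ± 0.35 (adjusted p = 0.0157). For asparagine and for glutamate both the cytosolic and the mitochondrial gene fell. Without αRes4 replicate 2 the count of members called was 5 in place of 10.

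Against αMut1, from which they were derived, αRes3 and αRes4 differed in fewer members. αRes3 was higher in WARS1 (0.66 ± 0.11, adjusted p = 1.86e-05) and AARS1 (0.58 ± 0.13, adjusted p = 0.000364) and lower in RARS1 (-0.63 ± 0.13, adjusted p = 0.000199), where 9.69% of genes were higher and 10.9% lower. With numbers 1 to 4 only, WARS1 was at 0.38 and lost its call. αRes4 was lower in NARS1 (-1.27 ± 0.10, adjusted p = 3.34e-13) and WARS1 (-0.67 ± 0.12, adjusted p = 1.76e-05) and higher in VARS2 (1.39 ± 0.37, adjusted p = 0.00192), where 14.0% of genes were lower and 18.5% higher. All αRes3 and αRes4 libraries held pseudoautosomal counts and no αMut1 or αWT library held more than 1, so line and whatever set these counts cannot be told apart there. A fit of numbers 1 to 4 only keeps this difference.

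Several α calls went with a shift of the surrounding genes, whose part in them was not tested. For EARS2 on chromosome 16 the median log2 change of genes within 5 Mb was -0.52 in αMut1, -0.57 in αRes2, -0.43 in αRes3 and -0.59 in αRes4. EARS2 itself was at -0.53, -0.62, -0.57 and -0.88 in the same lines. For RARS1 on chromosome 5 it was -0.70 in αRes3, where RARS1 was at -0.90. For NARS1 on chromosome 18 it was -0.53 over 32 genes in αRes4, where NARS1 was at -1.53. For GARS1 on chromosome 7 it was 0.31 in αRes2 and 0.45 in αRes3, where GARS1 was at 0.69 and 0.64. It was 0.33 for MARS1 and -0.33 for IARS2 in αRes3 (0.52 and -0.51), and -0.31 for PARS2 in αMut1 (-0.57). For MARS2 and NARS2 in αMut1 it was 0.00 and 0.03, and for WARS1 in αRes3 it was 0.13.

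**Figure D4:**
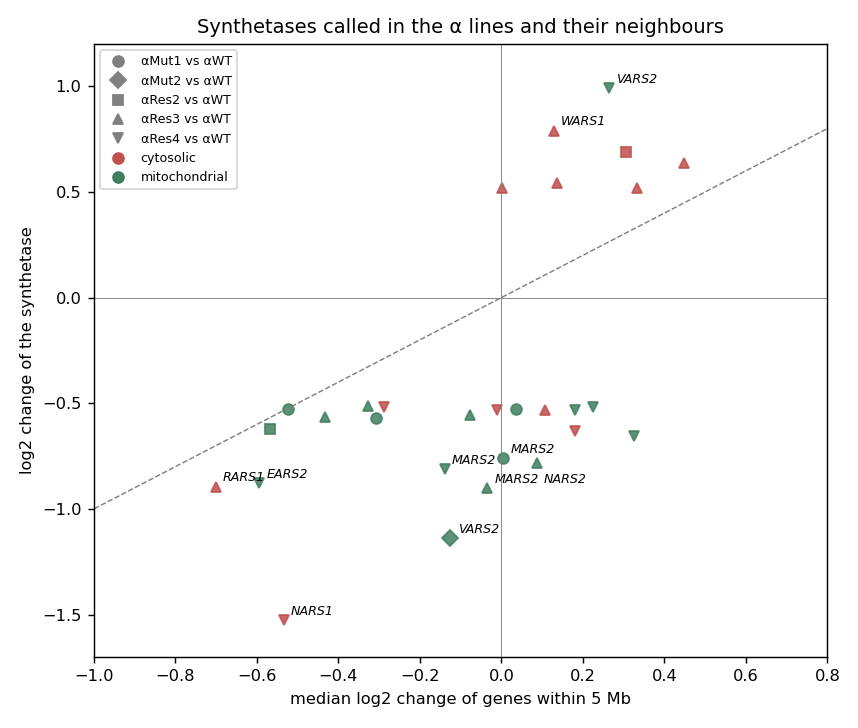
Log2 change of each called member in the α lines against αWT (vertical axis) and the median log2 change of the other tested genes within 5 Mb of it (horizontal axis). EARS2 in αMut1 (-0.53 beside a median of -0.52) lies on the dashed line of equal values, while NARS1 in αRes4, MARS2 and WARS1 lie away from it.

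The replicate sets within a line differed too. Numbers 5 to 8 against 1 to 4 of αRes1 called 8 members lower and 2 higher, where 15.6% of genes were lower and 22.7% higher. KARS1 (-0.79 ± 0.08, adjusted p = 4.4e-12), EPRS1 (-0.71 ± 0.08, adjusted p = 6.51e-10), IARS2 (-0.87 ± 0.07, adjusted p = 3.15e-15) and MARS2 (-0.87 ± 0.07, adjusted p = 8.36e-14) had the largest falls. KARS1 stood at 261 to 271 CPM in numbers 5 to 8 and at 419 to 505 CPM in numbers 1 to 4 of αRes1. In αMut1, 4 members were higher and 3 lower (13.7% and 15.4% of genes), with TARS2 (0.85 ± 0.07, adjusted p = 2.88e-14) and FARSA (0.72 ± 0.09) higher and WARS2 (-0.82 ± 0.07, adjusted p = 3.46e-13) and WARS1 (-0.68 ± 0.07) lower. In αWT, 2 members were higher and 0 lower (15.6% and 9.99% of genes), CARS1 (0.75 ± 0.05, adjusted p = 4.09e-15) and VARS2. In αRes2, VARS1 (0.66 ± 0.09) and SARS2 (0.53 ± 0.13) were higher and 0 were lower (6.52% and 8.71% of genes). The genes within 5 Mb had a median of 0.52 for TARS2, 0.26 for FARSA, -0.31 for WARS2 and 0.16 for WARS1 in αMut1. In αRes1 it was -0.38 for KARS1, -0.28 for EPRS1, -0.29 for IARS2 and -0.27 for MARS2, and the part of these shifts was not tested. What the sets stand for is not given in the labels.

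The amino acid response and ATF4 list held many falls against βWT. Of 22 tested, 20 were lower and 0 higher in WT-HS3Δ against βWT (median log2 change -2.03), 20 lower and 0 higher in βMut-HS3Δ (-2.71), 12 lower and 0 higher in βMut2 (-0.56), and 2 lower and 3 higher in βMut1 (0.05), where 27.5%, 26.1%, 13.7% and 7.28% of all genes were lower in these lines. In αWT against βWT 21 were lower (-2.69), where 23.1% of all genes were lower. ATF4 itself stood at 252, 252, 280 and 252 CPM in WT-HS3Δ, against 490, 502, 514 and 522 CPM in βWT, with no overlap and a log2 change of -0.92. CHAC1, a glutathione-degrading ATF4 target, stood at 7.79, 7.07, 6.602 and 6.21 CPM in WT-HS3Δ, against 81.2, 78.9, 73.3 and 82.1 CPM in βWT, a log2 change of -3.46. ASNS, the asparagine synthetase, stood at 1.76, 2.47, 2.48 and 2.47 CPM in WT-HS3Δ, against 18.5, 20.3, 20.1 and 18.9 CPM in βWT, a log2 change of -3.03.

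In βMut2 ASNS (-0.10), CHAC1 (-0.06) and ATF4 (0.08) were not called, while ATF5 (-2.10), PHGDH (-1.79), the first enzyme of serine synthesis, and CTH (-1.12) were lower. In αRes3 against αWT, 12 of 20 genes of the list were higher and 0 lower (median 0.66), among them PHGDH (1.77), CHAC1 (1.68), DDIT3 (1.37) and ATF4 (0.66). Of the same 20, 6 were higher in αRes2, 2 were higher in αMut1, and 3 were higher and 8 lower in αRes4. Over all genes, 20.1% were higher in αRes3, 12.0% in αRes2, 15.4% in αMut1 and 23.3% in αRes4, and 17.2% were lower in αRes4. The rises in αMut1 and αRes4 did not exceed these shares. The exons of DDIT3 and MARS1 overlap by 65 bases on opposite strands.

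Of 9 amino acid transporters tested, 4 were lower in WT-HS3Δ, 8 in βMut-HS3Δ, 6 in βMut2 and 8 in αWT against βWT, and 0 were higher in each of these. Over all genes, 27.5%, 26.1%, 13.7% and 23.1% were lower in these comparisons. SLC7A11, the cystine carrier, was lower by -2.92 in WT-HS3Δ and -3.14 in βMut-HS3Δ. In αRes3 7 were higher, SLC7A11 by 1.08, and SLC38A1 was lower by -1.14, where 20.1% of all genes were higher and 18.9% lower. Of the 7 genes of amino acid sensing, EIF2AK4, which encodes GCN2, was lower in βMut1 (-0.53), βMut2 (-0.53) and βMut-HS3Δ (-0.55), and IMPACT, an inhibitor of GCN2 activation, was lower in WT-HS3Δ (-0.96) and βMut-HS3Δ (-1.65).

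Other genes of tRNA charging, in lists of 4 and 6 genes, moved in both directions. All-gene shares were 27.5% lower and 22.8% higher in WT-HS3Δ, and 26.1% and 22.0% in βMut-HS3Δ. XPOT, the tRNA exporter, was lower in WT-HS3Δ (-0.91) and βMut-HS3Δ (-0.96), and AIMP2, a scaffold of the multisynthetase complex, was higher (0.65 and 0.63). AIMP1 and EEF1E1, the other scaffold genes, were not called in either. Among tRNA-dependent modification genes SEPSECS and PSTK, which turn serine on its tRNA into selenocysteine, went opposite ways in WT-HS3Δ (-1.59 and 0.78). GATC, of the mitochondrial glutaminyl-tRNA amidotransferase, was higher in WT-HS3Δ (0.62), where EARS2 also rose.

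Of 10 mitochondrial translation factors, 2 were higher and 0 lower in WT-HS3Δ, GFM1 (0.98) and TSFM (0.93), and 3 were higher in βMut-HS3Δ with MRRF (0.54) added, shares near the 22.8% and 22.0% of all genes called higher. In αRes3 5 were lower and 0 higher, and in αMut1 TUFM (-0.62) and GFM1 (-0.63) were lower, lines in which 5 and 4 mitochondrial synthetases fell. Over all genes, 18.9% and 7.35% were lower in αRes3 and αMut1. Of the 4 cytosolic elongation factors tested, 0 were called in WT-HS3Δ, and EEF2 was lower in βMut-HS3Δ (-0.56) and βMut2 (-0.50).

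WARS1 is also known as an interferon-induced gene, and a list of interferon-responsive genes was set beside it. In αMut1 8 of 11 tested genes of that list were higher and 0 lower (median 1.04), with WARS1 not called at 0.13. In αRes3 8 were higher and 1 lower (median 1.06), with WARS1 at 0.79. In αRes4 7 were higher and 0 lower (median 0.84), with WARS1 lower at -0.53. Over all genes, 15.4%, 20.1% and 23.3% were higher and 7.35%, 18.9% and 17.2% lower in αMut1, αRes3 and αRes4. In WT-HS3Δ 6 of 10 were lower and 1 higher, and in βMut-HS3Δ 5 were lower and 3 higher, with WARS1 at -1.78 and -2.29. Over all genes, 27.5% and 26.1% were lower and 22.8% and 22.0% higher in these lines. In αWT against βWT 3 of 11 were lower and 3 higher, near the 23.1% and 25.0% of all genes, with WARS1 at -2.12.

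Erythroid markers also differed between lines. In WT-HS3Δ, HBE1 (-2.04) and HBG1 (-1.44) were lower and HBZ (1.67) and KLF1 (1.00) higher, and in αRes3 HBE1 (2.00) and HBZ (1.80) were higher. A lower level in these bulk libraries can come from fewer cells that express a gene or from less RNA in each cell, which cannot be told apart, and the part of these markers in the synthetase changes was not tested.

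**Figure D5:**
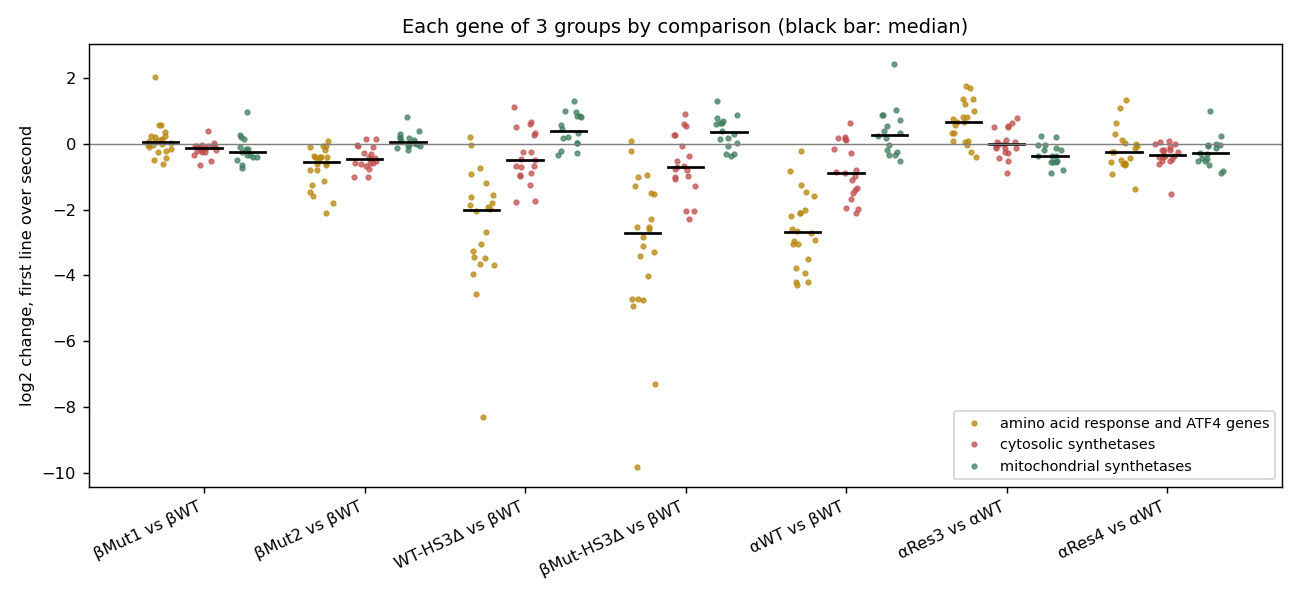
Log2 changes (vertical axis) of the cytosolic members, the mitochondrial members and the amino acid response genes in 7 comparisons; points are genes and bars are medians. The amino acid response genes lie lowest in the HS3Δ lines and in αWT against βWT, where the cytosolic medians are -0.48, -0.71 and -0.88 and the mitochondrial medians 0.38, 0.36 and 0.27.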

How the data were processed

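Poly(A) RNA-seq libraries were made by the authors with the NEBNext Ultra II Directional kit and sequenced in 51-base pairs, trimmed with cutadapt, aligned with BWA to hg38, handled with SAMtools 1.15.1 and R 4.3.0 per the labels, and counted per gene with featureCounts on GENCODE 42. The deposited values are raw counts per gene and library, with no normalization. The strand setting is not given in the sources used here. The study states 8 libraries for αMut1 and αMut2 and 4 for βMut-HS3Δ, and those listed here number 7, 4 and 3.

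Identifiers were matched to symbols in GENCODE 44. Genes with a mean of at least 10 counts were tested with edgeR 4.0.16 (R 4.3.3, limma 3.58.1) by the quasi-likelihood test with TMM scaling and Benjamini-Hochberg adjustment over all genes, in 1 fit of 43 α libraries, 1 of 19 β libraries and 1 of 12 unedited libraries. Numbers 5 to 8 were compared with 1 to 4 in a fit of the 43 α libraries with each set of a line as a group. SE is the absolute log2 change over the square root of F. CPM used TMM factors over the 62 libraries, and RPKM the canonical transcript length. Tables and figures used Python 3.11.15, pandas 2.3.3 and matplotlib 3.10.9. Scripts were tested on simulated data. Full statistics went to up to 4 called members with the largest rise and up to 4 with the largest fall in a comparison, to HARS1 and HARS2, and to partners of named genes. Other members are given by their log2 change, and genes of the lists were named after their values were seen. Members and gene lists were chosen with earlier results of these data known.

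Alternatives were DESeq2 1.42.0, RLE scaling, no filter, either replicate set alone, the set as a covariate, the replicate number as a block, and leaving out each library. αRes3 and αRes4 were placed with numbers 1 to 4 by their numbers alone. Their pseudoautosomal counts were above 0, as in αRes1 and αRes2 numbers 5 to 8. Same-numbered libraries deviated together in αRes2 against αMut1 (7 pairs, r between 0.117 and 0.255), where the block left 0 members called. There, 0 of the 7 went best with their own number. Both lines hold the 2 replicate sets, so pairing by number and by set cannot be told apart. Library totals limit precision most for αRes2 replicate 3.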

Additional observations from a re-analysis of the deposited data

Results flagged for a closer look

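Among groups of 4 to 8 libraries, a library stood far from the others of its line in 15 of 154 groups examined, and chance alone flags about 1 in 20 groups. In αRes2, replicate 3, the shallowest library, stood apart in the summed mitochondrial level (765 CPM, next 885 CPM), WARS1 (411 CPM, next 359 CPM), GARS1 (721 CPM, next 558 CPM) and MARS2 (20.6 CPM, next 27.2 CPM). In αWT, replicate 8 was low in the summed cytosolic level (5640 CPM, next 6276 CPM) and in EARS2 (71.4 CPM, next 80.2 CPM). In αMut2, replicate 3 was low in CARS1 (70.3 CPM, next 73.5 CPM).

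Replicate 1 was high in several β lines. It stood apart in βMut1 for FARSA (177 CPM, next 126 CPM) and MARS2 (19.2 CPM, next 16.1 CPM). In βMut2 it stood apart for FARSA (244 CPM, next 174 CPM), HARS2 (47.1 CPM, next 38.8 CPM) and the summed mitochondrial level (1160 CPM, next 987 CPM). In βWT it stood apart for AARS1 (1296 CPM, next 1081.5 CPM). HARS2 was high in βWT replicate 2 (42.2 CPM, next 39.9 CPM), and MARS2 was low in WT-HS3Δ replicate 3 (44.7 CPM, next 49.5 CPM).

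The change of AARS1 that goes with the HS2 mutation had an interaction of -0.54 between cells without and with HS3 (edgeR, adjusted p = 0.0413). The call was lost in 13 of 19 alternatives, and over the 19 AARS1 ranged from -0.70 to -0.41 and the adjusted p from 0.000123 to 0.144. The 129 genes within 5 Mb of AARS1 had a median interaction of -0.31, with 83.7% on the same side, and their part in it was not tested.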

How the results depend on the processing

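All 1237 alternative values of the 86 named member changes kept their direction. Of these, 1174 kept their side of the threshold, 62 lost the call and 1 gained it. DESeq2 moved none of the 22 counts of called members by over 1.5 times. With the replicate number as a block, the count was 0 in αMut2 against αWT (1 without) and 1 in αMut2 against αMut1 (2 without), and no other count of members moved by over 1.5 times. The set as a covariate gave the same counts of 0 and 1. Same-numbered libraries deviated together by the rule in αRes2 against αMut1 alone.

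With numbers 1 to 4 only, the counts were 7 in αMut1 (4 with all), 0 in αMut2 (1) and 5 in αRes2 (2) against αWT, and 8 in αRes1 (0), 2 in αRes2 (0) and 5 in αRes4 (3) against αMut1. With numbers 5 to 8 only, they were 5 in αRes1 (0) and 4 in αRes2 (2) against αWT, and 4 in αRes1 (0) and 3 in αRes2 (0) against αMut1. Without the filter αRes2 had 4 calls against αWT, and with RLE scaling the interaction had 0 (1 with TMM). Among the amino acid response genes, numbers 1 to 4 gave 11 calls in αMut1 (2 with all), 6 in αMut2 (3), 4 in αRes1 (2) and 13 in αRes2 (6), numbers 5 to 8 gave 4 in αMut1 and 6 in αRes1, and the block gave 1 in αRes1. That count was an alternative added after seeing the data. No share of all genes called stands beside the counts from 1 replicate set.

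The median over cytosolic minus that over mitochondrial members moved in small values. With the block it was -0.00126 in αMut1, 0.032 in αMut2 and 0.27 in αRes3 against αWT, and -0.016 in αMut2 and 0.11 in αRes3 against αMut1. With the set as a covariate it was 0.032 and 0.27 in αMut2 and αRes3 against αWT, and -0.016 and 0.086 in αMut2 and αRes3 against αMut1. With numbers 1 to 4 it was 0.037 in αMut2, 0.21 in αRes3 and, against αMut1, 0.15 in αRes3. With numbers 5 to 8 it was 0.13 in αRes1 and -1.22 in αWT against βWT.

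Leaving out 1 library at a time gave 0 to 1 calls in αMut2, 2 to 4 in αRes2 and 5 to 11 in αRes4 against αWT, 2 to 4 in αMut2 and 0 to 2 in αRes2 against αMut1, 3 to 8 in βMut1, 1 to 4 in βMut-HS3Δ against WT-HS3Δ, 0 to 2 in the interaction, and 2 to 5 and 1 to 3 between the sets of αWT and αRes2. The count in αMut2 was 0 without αMut2 replicate 2, 3 or 4 or αWT replicate 5 or 8, and that against αMut1 was 4 without αMut2 replicate 1. αRes2 had 1 or 2 calls against αMut1 without αMut1 replicate 1, 2, 3 or 4, and 1 between its sets without replicate 3 or 6. That of βMut-HS3Δ against WT-HS3Δ was 4 without βMut-HS3Δ replicate 1. Between the αWT sets it was 5 without replicate 6 and 4 without replicate 7. The difference of medians ranged from 0.0067 to 0.12 in αMut1, 0.28 to 0.35 in αRes3, -0.074 to -0.0022 in αMut2 and 0.16 to 0.23 in αRes3 against αMut1, 0.070 to 0.14 in βMut1, -1.18 to -0.97 in βMut-HS3Δ, -0.24 to -0.11 in βMut-HS3Δ against WT-HS3Δ, -0.31 to -0.21 in the interaction and -0.26 to -0.16 between the αMut1 sets.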
